A study of Sus scrofa with 24 samples.

Results

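The immediate early transcription factors FOS, FOSB, JUN, JUNB, EGR1, ATF3, IER2 and MYC were followed over 4 stages of pig development. A member was counted as measured when at least 1 probe set of the array carried its symbol as the single gene symbol in the platform annotation. By this rule 6 of the 8 genes were measured, by 8 probe sets, among 6765 genes with such a probe set. FOSB and JUNB had none and were not analysed here. EGR1 had 3 probe sets and each other gene had 1, and the mean signal of all 8 lay above background.

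Messenger RNA was measured in 24 offspring of German Landrace gilts that had received a high protein (HP) diet in gestation, with 1 Affymetrix Porcine Genome array per animal. The arrays form 4 groups of 6: fetuses at 94 days post conception (94 dpc), and offspring at 1, 28 and 188 days post natum (dpn). All 4 groups share the breed and the gestational diet, so no comparison below is a comparison of diets, and stage is the only labelled difference. At each stage the 6 animals came from 3 gilts. Mother, sex and array batch are not in the labels, so animals of a stage are not all independent and every p below is too small by an unknown amount.

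The sources conflict on the tissue: the labels give liver and the series title gives muscle. The 16 measured of 20 skeletal muscle markers were all above background, and their median signal in an array was 21571 to 75227. The 15 measured of 16 plasma protein genes of liver had a median signal of 20.0 to 10850, below the muscle median in each of the 24 arrays. The arrays therefore go against the label liver, and the tissue is named here only by these markers. In a tissue of mixed cells, fewer cells of a type and less RNA per cell cannot be told apart.

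Immediate early genes are transcribed within minutes of a growth factor, stress, stretch or nerve signal, from promoters that are already poised, and without new protein synthesis. Their messengers are short-lived, so a sample shows the state of the tissue shortly before it was taken, including handling of the animal and of the tissue. FOS and JUN proteins pair as the transcription factor AP-1, ATF3 can pair with JUN, EGR1 is a zinc finger factor, and MYC with its partner MAX drives genes of growth and ribosome production. In skeletal muscle these genes are known to respond to contraction, injury and the activation of muscle stem cells.

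Features of single arrays, and of stages, touch the results below. In animals 1, 2 and 3 of 1 dpn the 5′ probes of the control transcript EF1A read 0.0963 to 0.135 of its 3′ signal, against 0.670 to 0.703 in animals 4, 5 and 6, and this 5′ ratio is a sign of RNA quality. The EF1A ratio also set the fetuses apart. Their lowest value, 0.988, exceeded the highest of 1 dpn (0.703), of 28 dpn (0.696) and of 188 dpn (0.656). Every comparison with 94 dpc therefore crosses this EF1A difference. By the control transcript GAPDH the ratio was 0.780 to 0.870 at 94 dpc, within the 0.424 to 0.996 of 1 dpn. It was still above the highest of 28 dpn (0.736) and of 188 dpn (0.725). In animals 1, 2 and 3 of 188 dpn the plasma protein median was 10850, 9141 and 1555, against 20.0, 33.1 and 87.6 in animals 4, 5 and 6. One leukocyte marker median, 1040 in animal 5 of 94 dpc, stood above the 110 to 308 of the other 23 arrays. The part of these differences in the results was not tested, but results were also computed without the arrays named for 1 dpn and 188 dpn. Such runs leave the EF1A difference between the fetuses and the later stages in place, so they cannot address it.

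Each measured member differed between stages: 6 of 6 genes passed the limma F test over the 4 stages, against 52.3% of all probe sets. With median centring 5 passed, without IER2. The genes did not follow 1 course. FOS, JUN and ATF3 had their highest mean at 188 dpn, while EGR1, IER2 and MYC had theirs at 94 dpc. The threshold throughout was a limma adjusted p of 0.05 over 23935 probe sets, and a difference is the log2 signal of the first stage named minus that of the second.

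At 1 dpn against 94 dpc 0 of 6 genes rose and 4 fell (FOS, EGR1, IER2 and MYC), against 10.1% of all probe sets higher and 20.8% lower. Between 28 dpn and 1 dpn only ATF3 rose and 0 fell at 28 dpn, against 11.6% higher and 9.1% lower. At 188 dpn against 28 dpn FOS and JUN rose and MYC fell, against 4.12% higher and 10.5% lower. In the 28 dpn arrays 0 rose against 94 dpc, and EGR1 and IER2 fell, against 10.4% higher and 17.5% lower. FOS, JUN and ATF3 rose at 188 dpn against 94 dpc, and IER2 and MYC fell, against 12.5% higher and 27.4% lower. FOS, JUN and ATF3 also rose at 188 dpn against 1 dpn and 0 fell, against 14.1% higher and 20.8% lower. At an unadjusted limma p under 0.05, ATF3 was also higher at 28 dpn than at 94 dpc and MYC lower at 188 dpn than at 1 dpn, and the other counts of 0 remained 0. The median difference of the 6 members was -1.12 at 1 dpn against 94 dpc and 0.59 at 188 dpn against 28 dpn, where all probe sets had medians of -0.15 and -0.18. Comparisons that use the same stage share its arrays.

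**Figure D1:**
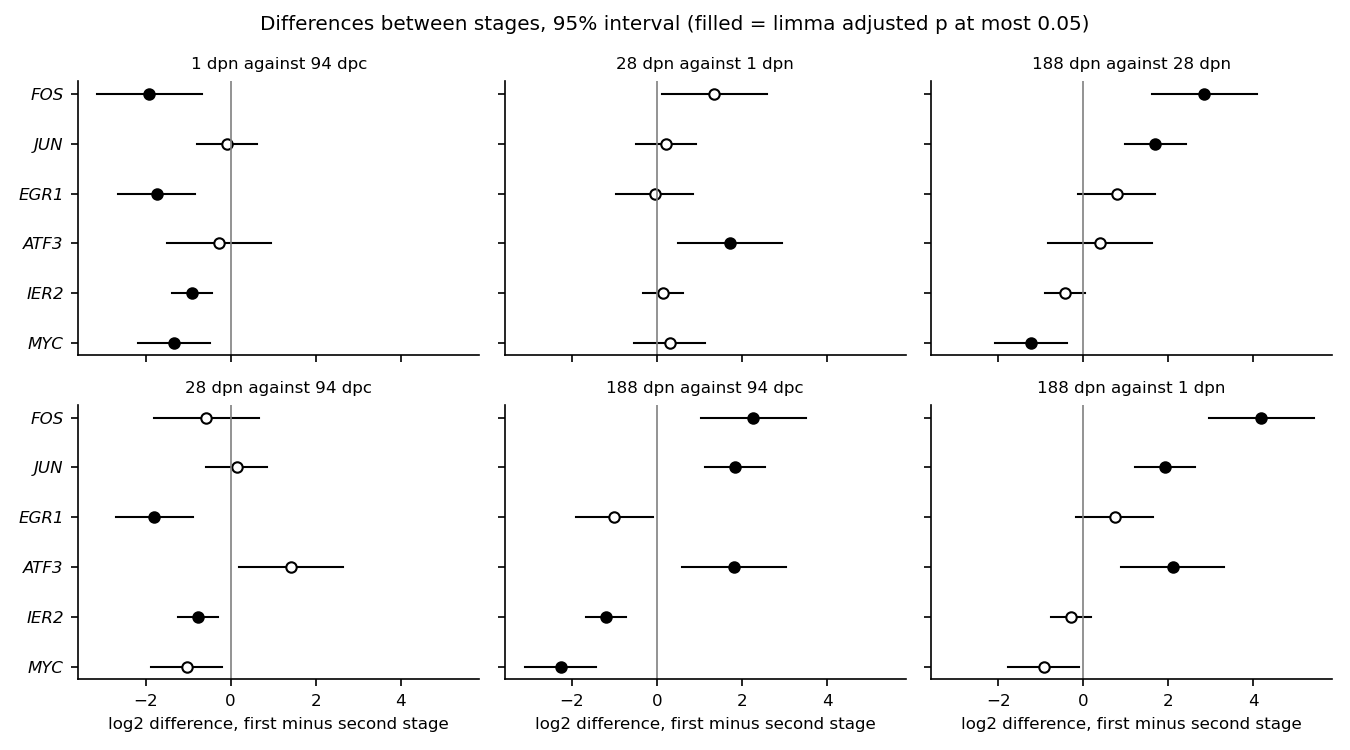
Log2 difference (x axis) of each gene (y axis, brightest probe set) in 6 comparisons of stages with its 95% interval from limma. Filled points have an adjusted p of at most 0.05 over all probe sets. FOS at 188 dpn against 1 dpn stands farthest from 0, at 4.19.

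The balance of all probe sets depended on the scaling of the arrays. Of the probe sets called at 1 dpn against 94 dpc 32.8% were higher with the deposited scaling, 47.7% after quantile normalization and 59.2% with arrays centred on their median. These shares were 28.2%, 42.0% and 62.9% at 188 dpn against 28 dpn, and at 28 dpn against 94 dpc 37.3%, 50.3% and 60.5%. They were 31.3%, 48.9% and 60.8% at 188 dpn against 94 dpc, and at 188 dpn against 1 dpn 40.4%, 48.8% and 54.8%. Median centring moved the median of all probe sets at 188 dpn against 94 dpc to 0.25, from -0.29 as deposited. Calls of members that depend on it are named with the gene.

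FOS, the DNA-binding partner of JUN proteins, showed the widest range of stage means among the 6 genes by their brightest probe sets. Its signal (lowest, median and highest of 6 animals) was 697, 1787 and 3899 at 94 dpc, 256, 450 and 1348 at 1 dpn, 281, 1452 and 4219 at 28 dpn, and 4650, 8311 and 13829 at 188 dpn. Every animal of 188 dpn lay above every animal of the 3 earlier stages, whose values overlap each other. At 1 dpn the high value was that of animal 1, and the other 5 animals lay at 461 or below.

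FOS was 18.2-fold higher at 188 dpn than at 1 dpn (log2 difference 4.19 ± 0.60 SE, limma adjusted p = 8.33e-06). It was also 7.17-fold higher at 188 dpn than at 28 dpn (2.84, adjusted p = 0.00208, limma) and 4.82-fold higher than at 94 dpc (2.27, adjusted p = 0.00368, limma). These 3 calls held under each alternative tried. FOS was 3.78-fold lower at 1 dpn than at 94 dpc (-1.92, adjusted p = 0.017, limma). This call was lost with median centring (adjusted p = 0.0522), with array weights (0.0641) and, with a difference of -1.64, when only animals 1, 2 and 3 of 1 dpn were kept (0.118). For 28 dpn against 1 dpn the difference of 1.34 missed the threshold (95% interval 0.11 to 2.58, limma adjusted p = 0.118), and passed it without animal 4 (1.72, 0.0435) or animal 6 (1.75, 0.0363) of 28 dpn. In the order 188 dpn, 94 dpc, 28 dpn and 1 dpn, only the first pair of neighbours differed.

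**Figure D2:**
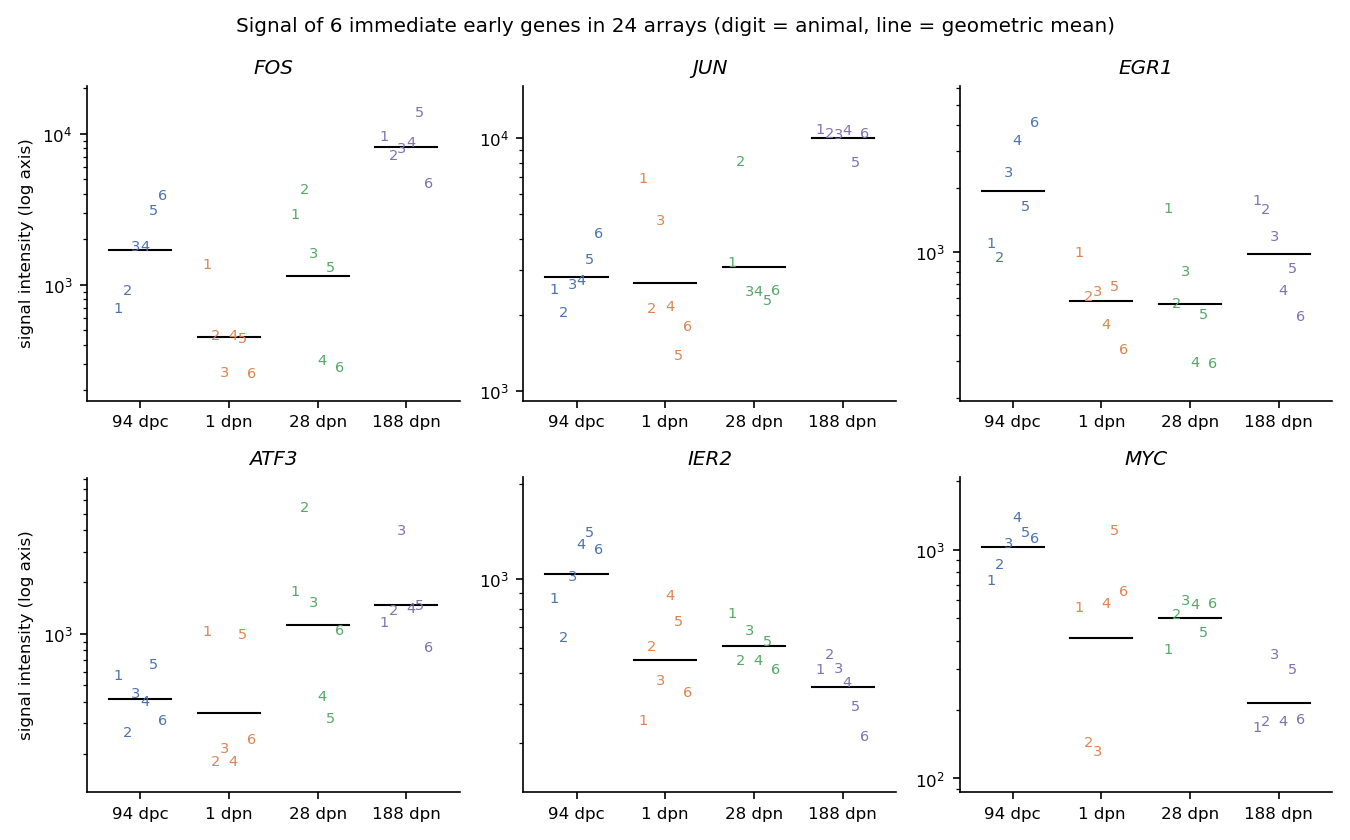
Signal intensity (log axis) of the brightest probe set of each gene by stage. Each digit is 1 animal, numbered within its stage, and the line is the geometric mean of 6. FOS and JUN stand high at 188 dpn, at 4650 to 13829 and 8008 to 10731, and the mean of MYC is lowest there, with animals at 166 to 347.

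JUN encodes a leucine zipper protein that pairs with FOS proteins in AP-1 dimers. Its signal was 2030, 2662 and 4170 at 94 dpc, 1365, 2120 and 6888 at 1 dpn, 2267, 2471 and 8048 at 28 dpn, and 8008, 10402 and 10731 at 188 dpn (lowest, median and highest). The first 3 stages overlap widely. The 188 dpn animals lay above all others except that animal 5 of 188 dpn, at 8008, was just below animal 2 of 28 dpn, at 8048.

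At 188 dpn JUN was 3.24-fold higher than at 28 dpn (log2 difference 1.70 ± 0.34 SE, limma adjusted p = 0.00151). It was 3.77-fold higher than at 1 dpn (1.92, adjusted p = 0.000122, limma) and 3.57-fold higher than at 94 dpc (1.84, adjusted p = 0.000139, limma). These calls held under each alternative tried. Between the 3 earlier stages no difference passed: 1 dpn minus 94 dpc was -0.08 (95% interval -0.79 to 0.63), 28 dpn minus 1 dpn was 0.22 (-0.49 to 0.93) and 28 dpn minus 94 dpc was 0.14 (-0.57 to 0.85). The 2 high arrays of 1 dpn, animal 1 at 6888 and animal 3 at 4677, are both among those with a low 5′ ratio, and without the 3 arrays of the higher ratio the difference to 94 dpc was 0.54.

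ATF3 encodes a stress-induced factor that represses many promoters as a homodimer and can pair with JUN. Its signal was 263, 422 and 654 at 94 dpc, 179, 226 and 1022 at 1 dpn, 319, 1273 and 5416 at 28 dpn, and 827, 1375 and 3973 at 188 dpn (lowest, median and highest). All 188 dpn animals were above all 94 dpc animals, while 1 dpn fell into 4 animals at 240 or below and 2 (animals 1 and 5) near 1000. At 28 dpn animals 4 and 5 stood at the level of the fetuses and animal 2 at the highest value of all 24 arrays.

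ATF3 was 3.52-fold higher at 188 dpn than at 94 dpc (log2 difference 1.82 ± 0.59 SE, limma adjusted p = 0.0165) and 4.28-fold higher than at 1 dpn (2.10, adjusted p = 0.00749, limma). Without the 3 arrays of 188 dpn with high plasma protein signal, which include animal 3 at 3973, these calls were lost, at differences of 1.5 (adjusted p = 0.13) and 1.78 (0.0812). At 28 dpn it was 3.27-fold higher than at 1 dpn (1.71, adjusted p = 0.0424, limma). That call was lost in 16 alternatives, among them median centring (1.65, adjusted p = 0.0504) and leaving out any of animals 2, 3, 4 and 6 of 1 dpn or animals 1, 2, 3 and 6 of 28 dpn; without animal 2 of 28 dpn the difference was 1.26 (adjusted p = 0.116). For 28 dpn against 94 dpc the difference of 1.43 missed the threshold as deposited (limma adjusted p = 0.0762) and passed it after quantile normalization (1.71, 0.0315), with median centring (1.69, 0.0382), and without animal 4 (0.0412) or 5 (0.0255) of 28 dpn. No neighbours in the order 188 dpn, 28 dpn, 94 dpc and 1 dpn differed.

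EGR1 encodes a factor that serum and contraction signals induce through the MAP kinase cascade. By the brightest of its 3 probe sets the signal was 928, 2003 and 4091 at 94 dpc, 341, 622 and 988 at 1 dpn, 292, 532 and 1600 at 28 dpn, and 490, 999.6 and 1733 at 188 dpn (lowest, median and highest). The fetal animals reach higher than any later animal, but their lowest value, 928 in animal 2, lay below the highest of each later stage. All 6 animals of each later stage lay below the fetal mean of 1945.

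EGR1 was 3.33-fold lower at 1 dpn than at 94 dpc (log2 difference -1.74 ± 0.44 SE, limma adjusted p = 0.00402) and 3.47-fold lower at 28 dpn than at 94 dpc (-1.79, adjusted p = 0.00341, limma). With only animals 1, 2 and 3 of 1 dpn the difference to 94 dpc was -1.42 (adjusted p = 0.0562). For 188 dpn against 94 dpc the difference of -1.0 missed the threshold (limma adjusted p = 0.0736), and passed it when animal 1 (0.047) or 2 (0.0345) of 94 dpc, animal 1 of 28 dpn (0.0491) or animal 1 of 188 dpn (0.0459) was left out. It also passed without the 3 arrays of 188 dpn with high plasma protein signal (-1.60, 0.0219). The 3 later stages did not differ past the threshold from each other by this probe set, and no neighbours in its order of stages differed.

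The probe sets of EGR1 disagreed at 1 dpn. The dimmest probe set read 207, 376 and 726 at 94 dpc, 3.05, 24.7 and 73.0 at 1 dpn, 140, 205 and 409 at 28 dpn, and 174, 231 and 325 at 188 dpn. All 6 arrays of 1 dpn were under the background signal of 74.7, and no array of another stage was. By another control transcript, actin, the 5′ ratio was 0.0325 to 0.149 at 1 dpn and 0.145 to 0.253 at the other stages. The part of this ratio in the reading was not tested. The dimmest probe set was at least 4.97-fold lower at 1 dpn than at 94 dpc (limma adjusted p = 1.26e-05). At 28 dpn it was at least 2.87-fold higher than at 1 dpn (adjusted p = 0.000267, limma), and at 188 dpn at least 3.16-fold higher (adjusted p = 5.24e-05, limma). Set against 94 dpc, 28 dpn gave -0.79 (adjusted p = 0.361, limma), so the lower level at 28 dpn did not pass by this probe set. The second brightest probe set passed in 0 of 6 comparisons by limma, with 0 at an unadjusted p under 0.05, and its difference at 1 dpn against 94 dpc was -0.90 (95% interval -1.99 to 0.19). What each probe set covers of the EGR1 transcript was not analysed here.

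**Figure D3:**
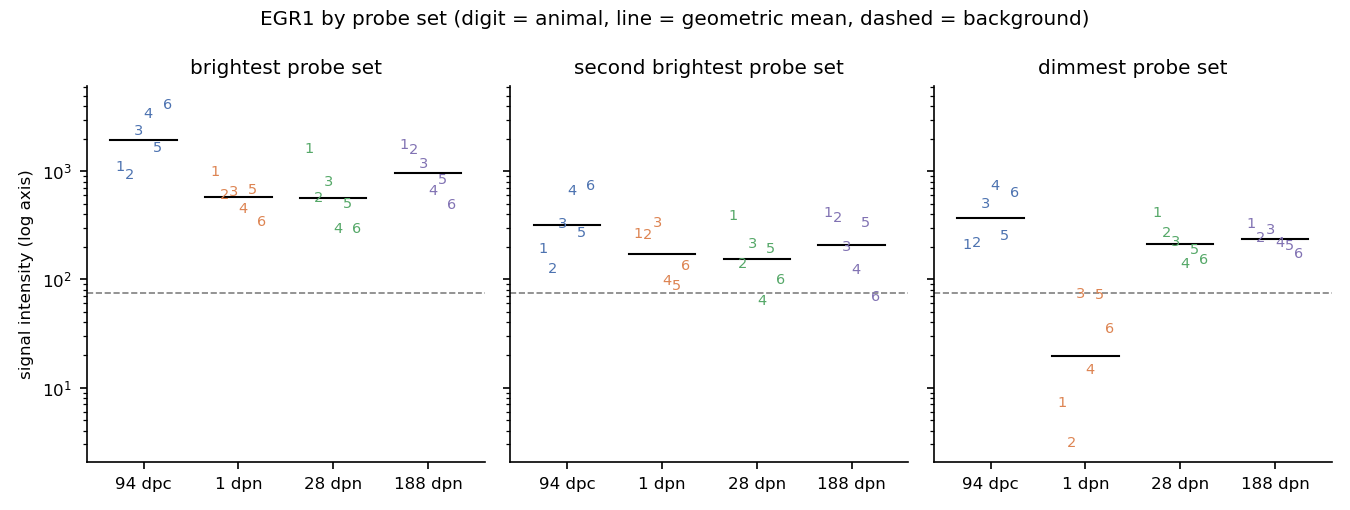
Signal intensity (log axis) of the 3 probe sets of EGR1 by stage; digits are animals, lines geometric means of 6 and the dashed line the background of 74.7. At 1 dpn the dimmest probe set (right) reads 3.05 to 73.0, while the brightest (left) reads 341 to 988.

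IER2 encodes a small nuclear protein induced early by growth factors. Its signal was 649, 1125 and 1398 at 94 dpc, 352, 538 and 880 at 1 dpn, 513, 589 and 771 at 28 dpn, and 314, 489 and 572 at 188 dpn (lowest, median and highest). The fetal stage had the highest mean, and its animals 1 and 2, at 859 and 649, lay within the range of 1 dpn, and animal 2 also within that of 28 dpn. All 188 dpn animals lay below all fetal animals.

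IER2 was 1.88-fold lower at 1 dpn than at 94 dpc (log2 difference -0.91 ± 0.23 SE, limma adjusted p = 0.00353). It was 1.70-fold lower at 28 dpn (-0.77, adjusted p = 0.0133, limma) and 2.29-fold lower at 188 dpn (-1.20, adjusted p = 0.000161, limma) than at 94 dpc. The call at 188 dpn held under each alternative tried. The call at 1 dpn was lost with median centring (-0.59, adjusted p = 0.0698) and without the 3 arrays of low 5′ ratio (-0.67, 0.0666), and that at 28 dpn with quantile normalization (-0.60, 0.0656) and median centring (-0.50, 0.134). The 3 stages after birth did not differ past the threshold from each other, with 188 dpn minus 28 dpn at -0.43 (95% interval -0.90 to 0.04).

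MYC, which drives growth and cell cycle genes, had its highest mean in the fetuses. Its signal was 731, 1085 and 1375 at 94 dpc, 130, 568 and 1207 at 1 dpn, 362, 547 and 597 at 28 dpn, and 166, 179 and 347 at 188 dpn (lowest, median and highest). The ranges of 94 dpc, 28 dpn and 188 dpn follow each other downward without overlap. The 1 dpn animals are spread more widely. Animals 2 and 3, at 142 and 130, lay below every animal of 188 dpn, and animal 5, at 1207, lay within the fetal range.

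MYC was 4.81-fold lower at 188 dpn than at 94 dpc (log2 difference -2.27 ± 0.41 SE, limma adjusted p = 8.92e-05), a call that held under each alternative tried. It was 2.35-fold lower at 188 dpn than at 28 dpn (-1.23, adjusted p = 0.0441, limma). This call was lost in 17 alternatives, among them quantile normalization (-1.05, 0.112), median centring (-0.96, 0.138) and 12 of the 24 runs that left out 1 animal. These were animals 2, 3 and 6 of 94 dpc, animals 2 to 6 of 28 dpn and animals 1, 2, 4 and 6 of 188 dpn, with differences between -1.27 and -1.16. For 28 dpn against 94 dpc the difference of -1.04 missed the threshold (limma adjusted p = 0.0613), although no animal overlapped, and passed it when these 2 stages were fitted alone (0.00113) or without animal 2 (0.0345), 3 (0.0292) or 5 (0.0326) of 1 dpn, which enter through the shared spread.

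At 1 dpn MYC was 2.52-fold lower than at 94 dpc (-1.33, limma adjusted p = 0.0152). This call was lost without the 3 arrays of low 5′ ratio, where the difference was -0.42 (adjusted p = 0.31). The call was also lost with median centring (-1.01, adjusted p = 0.0727) and when these 2 stages were fitted alone (0.0781). MYC signal in the low-ratio arrays was 556, 142 and 130, against 581, 1207 and 649 in the other 3 of 1 dpn. Among the low-ratio arrays only animals 2 and 3 were thus low, and the part of the 5′ ratio was not tested. For 188 dpn against 1 dpn the difference was -0.93 (limma adjusted p = 0.0801), and without the low-ratio arrays it was -1.84 (6.54e-05). Without animal 2 of 1 dpn it was -1.24 (0.0141) and without animal 3 it was -1.26 (0.0102).

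Markers of proliferating cells, like MYC by its stage means, read highest at 94 dpc and lowest at 188 dpn. The summed signal of their 11 measured of 14 genes was 5117 to 8166 at 94 dpc and 1024 to 2224 at 1 dpn. At 28 dpn it was 2085 to 3465, at 188 dpn it was 929.955 to 1515, and 9 of the 11 had a mean under background at 188 dpn. The part of these cells in the MYC signal was not tested.

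Animals of 1 stage differed from each other far more in some of these genes than in others. At 28 dpn the highest animal exceeded the lowest 15.0-fold for FOS and 17.0-fold for ATF3, but 1.65-fold for MYC and 1.503-fold for IER2. The SD of log2 values at 28 dpn was 1.62 for FOS, at percentile 99.5 of 14557 probe sets above background, and 1.48 for ATF3, at percentile 99.2. EGR1 (SD 0.93) stood at percentile 95.7 and JUN (SD 0.70) at 92.2, while MYC (SD 0.29) stood at 51.7 and IER2 (SD 0.23) at 35.0. At 188 dpn JUN varied little, with an SD of 0.16 at percentile 11.2. The typical probe set had an SD of 0.28 at 28 dpn and 0.51 at 1 dpn.

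Some animals were the highest or lowest of their stage in several genes, and how many would be so by chance was not tested. At 1 dpn animal 1, an array of low 5′ ratio, was highest for FOS, JUN, EGR1 and ATF3 and lowest for IER2. At 28 dpn animal 2 was highest for FOS, JUN and ATF3, and animal 6 lowest for FOS, EGR1 and IER2. At 94 dpc animal 6 was highest for FOS, JUN and EGR1, and animal 2 lowest for JUN, EGR1, ATF3 and IER2. At 188 dpn animal 6 was lowest for FOS, EGR1, ATF3 and IER2.

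**Figure D4:**
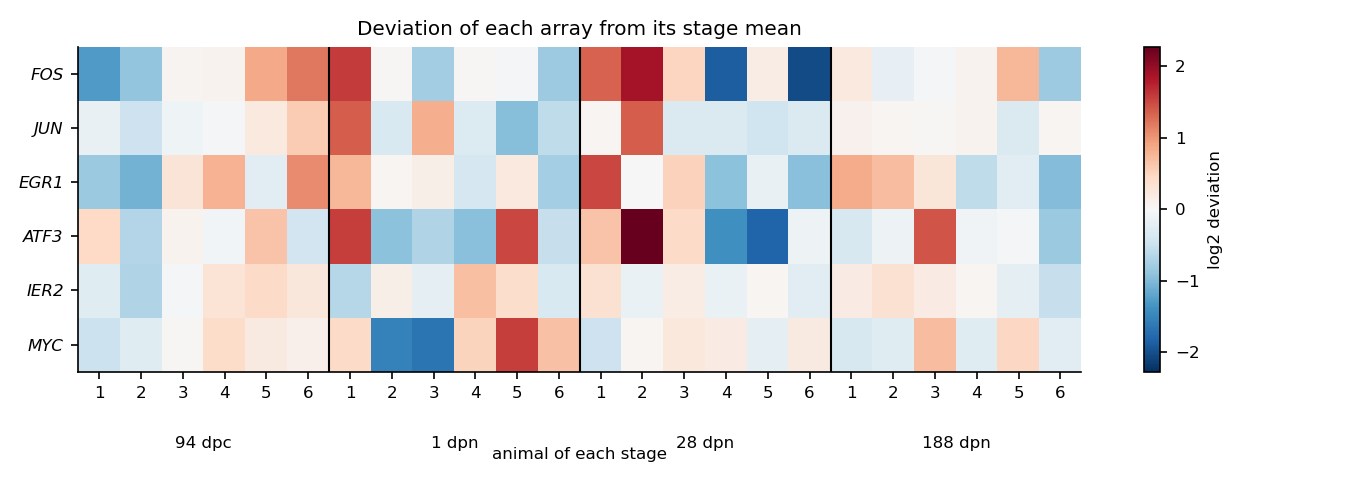
Deviation of each array from the mean of its stage in log2 (colour), for 6 genes (rows) and 24 animals (columns, by stage). Animals 1 and 2 of 28 dpn and animal 1 of 1 dpn are red, that is above their stage mean, in FOS and ATF3. JUN at 188 dpn is pale, with an SD of 0.16.

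To compare genes across animals, each array's deviation from its stage mean was correlated between genes, in 15 pairs over 24 arrays, with deviations permuted within stages 100000 times. The correlation was above 0 in 12 of the 15 pairs, with a median r of 0.34. The same share over pairs of other genes was not computed, so this count cannot be read as particular to these genes. FOS and EGR1 were the closest pair, with Pearson's r of 0.684 (two-sided permutation p = 0.00114, adjusted p = 0.0171) and Spearman's rho of 0.637 (permutation p = 0.00302, adjusted p = 0.0453). Without animals 4 and 6 of 28 dpn, the 2 arrays farthest from the median FOS deviation, r was 0.608. Within the stages r was 0.762 at 94 dpc, 0.746 at 1 dpn, 0.78 at 28 dpn and 0.331 at 188 dpn.

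No other pair passed the adjustment. By Pearson's r 4 pairs, FOS and EGR1 among them, had an unadjusted permutation p under 0.05. FOS and JUN had r = 0.538 (permutation p = 0.0121, adjusted p = 0.0719) and rho = 0.471 (permutation p = 0.0223, adjusted p = 0.112). EGR1 and IER2 had r = 0.492 (permutation p = 0.0144, adjusted p = 0.0719) and rho = 0.534 (permutation p = 0.0109, adjusted p = 0.082). The FOS and EGR1 pair missed the threshold without animal 4 (r = 0.647, adjusted permutation p = 0.0546) or animal 6 (r = 0.646, 0.0538) of 28 dpn. With the second brightest probe set of EGR1 r was 0.559 (adjusted permutation p = 0.091). With the dimmest it was 0.0838 (0.806), a value that includes the 6 arrays of 1 dpn under background and so says little about the pair. JUN and ATF3 had r = 0.43, which became -0.0442 without animal 2 of 28 dpn and animal 1 of 1 dpn.

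**Figure D5:**
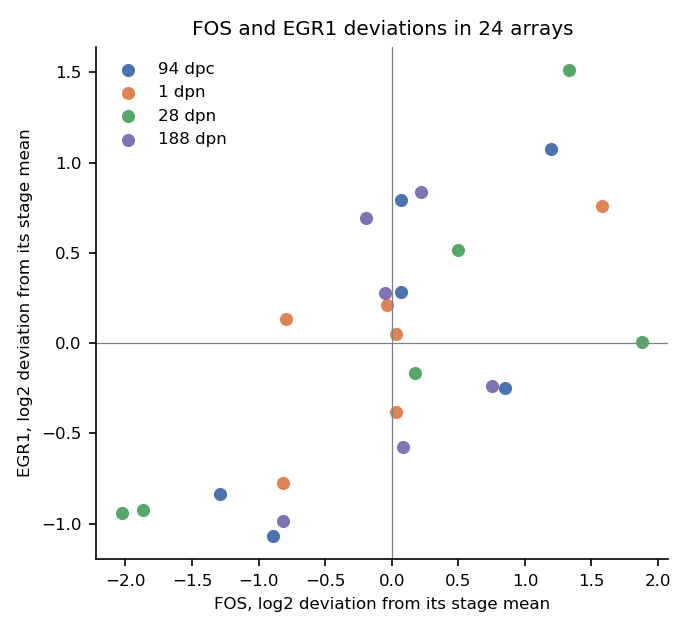
Deviation from the stage mean in log2 of FOS (x axis) and EGR1 (y axis), 1 point per array, coloured by stage. The points run from low in both to high in both, with Pearson's r of 0.684 over 24 arrays.

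Among 5480 genes above background, the pattern over arrays most like FOS after removal of stage means was that of EGR1 (r = 0.684), then TRAPPC9 (0.645). EGR1 was followed most closely by FOS and then by RPS25 (0.639). JUN was most like ARHGAP27 (0.836) and RPL22L1 (0.801), and ATF3 most like XIRP1 (0.781), which encodes an actin-binding protein of striated muscle, and CAMSAP1 (0.703). IER2 was most like NDUFV3 (0.652) and ZCWPW1 (0.650). MYC was most like NOP16 (0.878) and NUP50 (0.871), which encode a ribosome assembly and a nuclear pore protein. These r values are descriptions over 24 arrays that include those of low 5′ ratio, and without 1 dpn r was 0.39 for MYC with NOP16, 0.363 for IER2 with NDUFV3 and 0.556 for JUN with RPL22L1, and 0.75 for ATF3 with XIRP1.

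Other factors of the AP-1 and ATF families, and C/EBP factors as possible partners, made a list of 23 genes, of which 9 were measured. The 9 include CEBPB, CEBPD and CEBPG of the C/EBP family. With the deposited scaling and all arrays, every count of 0 given below for a list is also 0 at an unadjusted limma p under 0.05. List counts stand beside the shares of all probe sets, and no list was tested against these shares. At 1 dpn against 94 dpc 10.1% of probe sets were higher and 20.8% lower, and at 28 dpn against 1 dpn 11.6% and 9.1%. At 188 dpn the shares were 4.12% and 10.5% against 28 dpn, and 12.5% and 27.4% against 94 dpc. Of the 9 genes 3 had a mean under background. At 1 dpn against 94 dpc 5 rose and 0 fell. The rising ones include CEBPB, CEBPD and ATF5, which averaged 24.2 at 94 dpc, under background, and 96.8 at 1 dpn. At 28 dpn against 1 dpn 1 rose and 1 fell, and at 188 dpn against 28 dpn 2 rose and 0 fell. At 188 dpn against 94 dpc 4 rose, among them CEBPB and CEBPG, and 0 fell. ATF4, the factor of the amino acid and endoplasmic reticulum stress response, averaged 56741 at 188 dpn against 6448 at 94 dpc (log2 difference 3.14 ± 0.15 SE, limma adjusted p = 1.18e-12). It also rose at each step between stages, by 0.59, 1.49 and 1.06, although the first step was 0.16 after quantile normalization (adjusted p = 0.475) and the second 0.27 with the mean of its probe sets (adjusted p = 0.542). CEBPB, a factor of inflammation and metabolism, averaged 11415 at 188 dpn against 1295 at 94 dpc (3.14 ± 0.31 SE, limma adjusted p = 2.44e-08). FOSL2, a FOS relative, averaged 96.7 at 28 dpn against 274 at 1 dpn (-1.5, limma adjusted p = 0.00412).

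Other immediate early and early response genes numbered 39 measured of 62 listed, 8 of them with a mean under background. Among the 39 genes 1 rose and 10 fell at 1 dpn against 94 dpc, where 10.1% of all probe sets were higher and 20.8% lower. Their median difference was -0.29 (0.03 with median centring), against -0.15 (0.17) for all probe sets. PLK2, a stress-induced kinase, averaged 148 at 1 dpn against 1065 at 94 dpc (-2.85 ± 0.38 SE, limma adjusted p = 7.19e-06). PPP1R15A, which restores translation after stress, averaged 122 at 1 dpn against 508 at 94 dpc (-2.06, adjusted p = 0.0011, limma). GADD45B, a stress sensor, averaged 273 at 1 dpn against 1092 at 94 dpc (-2.0, adjusted p = 0.0026, limma), and without the 3 low-ratio arrays its difference was -0.76 (adjusted p = 0.161).

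In the same list 4 rose and 3 fell at 28 dpn against 1 dpn: the antiproliferative gene BTG2 averaged 2989 at 28 dpn against 656 at 1 dpn (2.19 ± 0.48 SE, limma adjusted p = 0.00217). The matrix gene THBS1 averaged 436 at 28 dpn against 2685 at 1 dpn (-2.62, adjusted p = 0.0039, limma; -2.23 and 0.0662 without the low-ratio arrays). There were 5 that rose and 7 that fell at 188 dpn against 28 dpn, with a split of 9 and 4 under median centring. KLF15, a glucocorticoid-induced factor of muscle metabolism, averaged 1075 at 188 dpn against 330.4 at 28 dpn (1.70 ± 0.23 SE, limma adjusted p = 2.62e-05), and GADD45G averaged 3207 at 188 dpn against 1081 at 28 dpn (1.57, adjusted p = 0.00114, limma). Against 94 dpc 8 rose and 14 fell at 188 dpn, and 14 rose and 8 fell under median centring, so the list has no direction that holds across scalings. KLF9 averaged 3033 at 188 dpn against 621 at 94 dpc (2.29 ± 0.27 SE, limma adjusted p = 3.34e-07).

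Kinases and factors upstream of these genes numbered 14 measured of 41 listed, 2 of them with a mean under background. Of the 14 genes 6 rose and 1 fell at 188 dpn against 94 dpc. MAP2K2, which activates the kinase ERK, averaged 7002 at 188 dpn against 1792 at 94 dpc (1.97 ± 0.15 SE, limma adjusted p = 6.97e-10). MAP2K6, which activates p38, averaged 532 at 188 dpn against 181 at 94 dpc (1.56, adjusted p = 7.33e-06, limma). MAPK14, which is p38 alpha, averaged 2120 at 28 dpn against 1023 at 1 dpn (1.05, adjusted p = 9.11e-06, limma). CREM, a factor that answers to cyclic AMP, averaged 2621 at 188 dpn against 1021 at 28 dpn (1.36, adjusted p = 0.00206, limma). Its low stage was 28 dpn, since CREM averaged 2119 at 94 dpc and 2051 at 1 dpn. At 28 dpn it was lower than at 94 dpc (-1.05, adjusted p = 0.00753, limma). It was also lower than at 1 dpn (-1.01, adjusted p = 0.0142, limma), a call lost in 2 alternatives. At the steps between stages 2 rose and 1 fell, 2 rose and 1 fell, and 4 rose and 1 fell.

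The list of EGR1 repressors and MYC partners had 7 measured of 20 genes, 1 of them with a mean under background. The 7 were MXD3, MXD4, MXI1, MYCBP, MYCBP2, FBXW7 and USP28, so no repressor of EGR1 was among them. Of the 7 genes 0 rose and 4 fell at 1 dpn against 94 dpc, with 1 fall left after quantile normalization or median centring. MXD3, which competes with MYC for MAX and is known from dividing cells, averaged 131 at 1 dpn against 577 at 94 dpc (-2.14 ± 0.30 SE, limma adjusted p = 1.48e-05). It averaged 136 at 188 dpn against the same fetal level (-2.08, adjusted p = 7.24e-06, limma). MXI1, another antagonist of MYC, averaged 399.6 at 188 dpn against 182 at 28 dpn (1.13, adjusted p = 0.0011, limma).

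Genes known as MYC targets, 24 measured of 35 listed, are set here beside MYC itself. Of the 24 genes 2 had a mean under background. In this list 8 rose and 2 fell at 1 dpn against 94 dpc while MYC fell, and 9 rose and 0 fell under median centring. The fall of MYC at this step was itself not called under median centring (-1.01, limma adjusted p = 0.0727). Without the 3 low-ratio arrays 10 of the list rose and 0 fell, with MYC at -0.42 (limma adjusted p = 0.31). SRM, the spermidine synthase, averaged 1540.3 at 1 dpn against 418 at 94 dpc (1.88 ± 0.18 SE, limma adjusted p = 7.33e-08), and the nucleolar gene NPM3 averaged 2139 at 1 dpn against 656 at 94 dpc (1.71, adjusted p = 1.61e-06, limma). Both fell at 28 dpn against 1 dpn, with differences of -1.65 for SRM and -1.68 for NPM3, and at that step 2 rose and 8 fell. None rose and 5 fell at 188 dpn against 28 dpn, and 3 rose and 2 fell under median centring. CCND2, a cyclin of the G1 phase, averaged 223 at 188 dpn against 1193 at 28 dpn (-2.42 ± 0.26 SE, limma adjusted p = 2.43e-06). Set against 94 dpc, 3 rose and 10 fell at 188 dpn, and 9 rose and 4 fell under median centring. LDHA, the muscle form of lactate dehydrogenase and the brightest gene of the list, averaged 66967 at 188 dpn against 11885 at 94 dpc (2.49, adjusted p = 1.65e-10, limma).

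Genes known as AP-1 targets, 21 measured of 25 listed, are set here beside FOS and JUN, which rose at 188 dpn. At 188 dpn against 28 dpn 1 rose and 6 fell, and at 188 dpn against 94 dpc 3 rose and 8 fell. Under median centring these counts were 2 and 4, and 4 and 6. The median difference of the list at 188 dpn against 94 dpc was -0.725 as deposited and -0.191 under median centring. Of the 21 genes 5 had a mean under background. The falling members include matrix genes. The gelatinase MMP2 averaged 700.3 at 188 dpn against 3122 at 94 dpc (-2.16 ± 0.24 SE, limma adjusted p = 2.27e-07). Its inhibitor TIMP1 averaged 729 at 188 dpn against 3207 at 94 dpc (-2.14, adjusted p = 7.25e-07, limma), and the collagen crosslinker LOX averaged 104 at 188 dpn against 542 at 94 dpc (-2.39, adjusted p = 6.43e-05, limma). Fibroblast markers were also lower: the summed signal of 8 measured of 10 was 13731 to 22618 at 188 dpn against 51605 to 58770 at 94 dpc, and its part was not tested. Another 5 rose and 1 fell at 1 dpn against 94 dpc, and the rising ones include the redox genes NQO1 (1070.4 at 1 dpn against 292 at 94 dpc, limma adjusted p = 0.00213) and GCLM (275 against 80.7, 1.79e-05). Of the targets 1 rose and 4 fell at 28 dpn against 1 dpn.

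Heat shock genes, which cells induce under protein stress, numbered 14 measured of 17 listed. At 188 dpn against 28 dpn, where FOS and JUN rose, 6 rose and 0 fell, and at 188 dpn against 94 dpc 8 rose and 1 fell. BAG3, a chaperone partner in muscle, averaged 8665 at 188 dpn against 4075 at 28 dpn (1.09 ± 0.14 SE, limma adjusted p = 2.1e-05). HSPB8, a small heat shock protein, averaged 14616 at 188 dpn against 2499 at 94 dpc (2.55, adjusted p = 5.52e-09, limma). At 1 dpn against 94 dpc, where 0 members rose, 6 heat shock genes rose and 2 fell, with a median difference of 0.235. After quantile normalization 4 rose and 2 fell (median -0.168), and with median centring 6 rose and 1 fell (0.56). At an unadjusted limma p under 0.05, 6 rose and 5 fell with the deposited scaling. CRYAB, a lens and muscle chaperone, averaged 28891 at 1 dpn against 7400.4 at 94 dpc (1.965, adjusted p = 5.79e-06, limma). In this list 3 rose and 2 fell at 28 dpn against 1 dpn.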

How the data were processed

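The authors processed the arrays with GCOS 1.1.1, per the submitters' processing notes, and deposited a linear signal intensity for each probe set of each array. RNA was labelled from 0.5 µg per animal, per the labels. Each array had been scaled: after trimming 2% from each tail its mean was 498 to 499. Scaling and summary settings are not given in the sources used here. Of 24118 probe sets 183 controls were left out, and 23935 were tested without a filter on low values. Symbols come from the platform annotation: 1 symbol for 10069 of the tested probe sets, several for 198 and none for 13668. The number of arrays limits the precision.

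Values were taken as log2 with no added constant and tested with limma 3.58.1 (lmFit and eBayes, R 4.3.3). The fit held 24 arrays and 4 stage means, which leaves 20 residual degrees of freedom. Tests were two-sided, p-values were adjusted by Benjamini-Hochberg over the 23935 probe sets, and the threshold was 0.05. The brightest probe set stands for a gene. Means of signals are geometric means of 6 arrays. Background is the 95th percentile of 17 Tag controls, 74.7, and a fold against a stage mean under it is a bound. The members and all gene lists were chosen with earlier results of these data known. In each list up to 3 called genes with the largest difference per comparison, and the brightest gene, could be named, and which of these are named was settled while writing. For likeness, the 2 genes with the highest r were named. The fit was tested on simulated data. Alternatives were quantile normalization, median centring, 16 or 64 added before log2, no dimmest 30% of probe sets, only the stages compared, trend and robust settings, array weights, the mean of a gene's probe sets, a threshold of 0.01 and each animal left out. Runs without the 3 low-ratio arrays of 1 dpn or the 3 arrays of 188 dpn with high plasma protein signal were planned, and runs without the other 3 of each, or with EGR1 read by another probe set, were added after seeing the data. Python 3.11.15 with pandas 2.3.3, numpy 2.4.6, scipy 1.17.1 and matplotlib 3.10.9 was used for correlations and figures. Promoter and protein sequences were not analysed here.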

Additional observations from a re-analysis of the deposited data

Results flagged for a closer look

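In 4 of 32 groups of 6 arrays, 1 animal stood far from the others, with a gap to its nearest neighbour above Dixon's critical value at the 95% level. Chance alone marks about 5% of groups in this way. For FOS, animal 1 of 1 dpn had a signal of 1348, the next being 461 (gap 0.644 of the range). For JUN, animal 2 of 28 dpn had 8048, the next being 3207 (0.726), and animal 5 of 188 dpn was lowest at 8008, the next being 10262 (0.847). For ATF3, animal 3 of 188 dpn had 3973, the next being 1442 (0.646). Animal 1 of 1 dpn is among the arrays of low 5′ ratio and animal 3 of 188 dpn among those of high plasma protein signal, and the part of either was not tested.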

How the results depend on the processing

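Of 1380 alternative values of the members' differences 1274 kept their direction and their side of the threshold, 53 lost the call, 32 gained one and 21 changed sign. With 1 animal left out at a time, the number of members past the threshold was 0 to 2 at 28 dpn against 1 dpn, and 0 to 3 of the gene pairs correlated. At 1 dpn against 94 dpc, where 4 passed, 1 passed with median centring and 2 at an adjusted p of 0.01 or without the 3 arrays of low, or the 3 of higher, 5′ ratio. At 28 dpn against 1 dpn, where 1 passed, 0 passed with median centring, array weights, a threshold of 0.01, only these stages, without the low-ratio arrays or without either set of 3 arrays of 188 dpn, and 2 with EGR1 read by its dimmest probe set; a 0 here leaves ATF3 at an adjusted p of 0.0424 to 0.142. At 28 dpn against 94 dpc, where 2 passed, 4 passed with 64 added or with array weights, and 1 at a threshold of 0.01 or with either other probe set of EGR1. Of the gene pairs, where 1 passed, 3 passed with median centring or without the low-ratio arrays, 2 without the higher-ratio arrays, and 0 at a threshold of 0.01, with the mean of a gene's probe sets or with either other probe set of EGR1.

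The sign changes are of differences that missed the threshold. JUN at 1 dpn against 94 dpc became 0.25 with median centring and 0.54 without the higher-ratio arrays, and ran from -0.35 to 0.11 with 1 animal left out. ATF3 there became 0.032 with quantile normalization and 0.043 with median centring. At 28 dpn against 1 dpn JUN became -0.40 without the higher-ratio arrays and ran from -0.056 (without animal 2 of 28 dpn) to 0.49 with 1 animal left out, and IER2 -0.10 without the low-ratio arrays. MYC became -0.61 without those, and ran from -0.033 to 0.61 with 1 animal left out. EGR1 became 0.26 without the low-ratio arrays, -0.36 to 0.13 with 1 animal left out, 1.09 with the mean of its probe sets and, past the threshold, a fitted 3.45 with the dimmest one, which is no measured size because all 6 arrays of 1 dpn are under background there. JUN at 28 dpn against 94 dpc became -0.035 with quantile normalization and was lowest, at -0.14, without animal 2 of 28 dpn. The r of EGR1 and RPS25 became -0.103 with the mean of a gene's probe sets. Except where values above show it, the cause was not tested.
No paired analysis was possible because animal numbers follow sample order and the labels tie no animal of one stage to one of another. Signals near the background of 74.7, such as those of 1 EGR1 probe set at 1 dpn, have no reliable order.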
